A study of Mus musculus with 15 samples.

Results

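Enteroendocrine cells are the hormone-producing cells of the gut epithelium. The genes described here are 31 genes of these cells out of 45905 in each deposited table: 12 hormones and other secreted or signalling products, 9 granins and enzymes of peptide processing, and 10 transcription factors. They were listed by name with no filter on their values, though earlier results of these data were known, and all 31 were found.

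The libraries are bulk poly(A) RNA sequencing of mouse material in 5 groups of 3. In the Tamoxifen organoids (code T41) the genotype in the title is iVilCre ERT2JUPfl/fl, that is a floxed Jup gene with a Cre recombinase that the Villin promoter drives in intestinal epithelium and that tamoxifen activates. The DMSO organoids, which received the solvent by their name, and the nativ organoids have the code T75, with JUPfl/fl and no Cre in the title. The labels give mouse gut as the origin of every organoid. The gut tissue libraries are described as PG_KO and as ctr (PG stands for plakoglobin, the junction protein that Jup encodes). Their titles go against these descriptions, giving DSS colitis JUPfl/fl for the PG_KO libraries (DSS, dextran sulfate sodium, is an agent that injures the colon) and iVilCre ERT2JUPfl/fl for the ctr libraries, and the groups follow the descriptions. The labels give no age, no gut segment and no statement that replicates came from separate cultures, so p-values in organoids measure only the spread between these samples. Tamoxifen, the Cre transgene and the T41 code go together, so their parts cannot be told apart.

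Jup itself was 69.0, 70.9 and 71.2 CPM, that is reads scaled to a common library total, in Tamoxifen organoids, against 384 ± 27.8 CPM in DMSO and 352 ± 67.2 CPM in nativ organoids (SD, n = 3 each). It was 75.2, 82.8 and 80.3 CPM in PG_KO gut, against 302, 375 and 495 CPM in ctr gut. Jup was thus low in the libraries whose names mark the deletion. Library totals lay between 23194385 and 30744563 reads, so that 3 reads in a library, the limit that a count of 0 allows, are 0.0976 to 0.129 CPM. The labelled tissue was checked against 8 markers of intestinal epithelium, which summed to 6569 to 6611 CPM in Tamoxifen organoids, against 477 to 584 CPM in DMSO and 539 to 711 CPM in nativ organoids. Of these markers Isx, an intestinal homeobox gene, had 0 reads in all 3 DMSO libraries, and Cdx1, a homeobox gene of intestinal identity, reached at most 0.277 CPM in any T75 library. Others were lower than in Tamoxifen organoids but present. In T75 libraries Vil1 was 166 to 260, Lgals4 171 to 486 and Cdx2 15.5 to 17.8 CPM. In Tamoxifen organoids these were 1246 to 1269, 2240 to 2288 and 326 to 335 CPM. General epithelial markers such as Epcam and the keratins were present in both kinds of organoid, at 9334 to 9493 CPM in Tamoxifen, 6388 to 7840 CPM in DMSO and 8212 to 8323 CPM in nativ organoids. Hhex, a factor of foregut endoderm, was 3.09 to 3.51 CPM in Tamoxifen organoids, against 176 to 231 CPM in DMSO and 141 to 202 CPM in nativ organoids. Pdx1, a factor of duodenum and pancreas, was 1.79 to 1.97 CPM in Tamoxifen organoids, against 21.5 to 25.6 CPM in DMSO and 20.9 to 26.8 CPM in nativ organoids. Foxa1 went the other way, at 40.3 to 42.2 CPM in Tamoxifen, 3.92 to 6.33 CPM in DMSO and 3.57 to 5.85 CPM in nativ organoids. The intestinal identity of the T75 organoids is therefore in doubt, and every difference of Tamoxifen from T75 organoids below may be one between tissues or states as well as one of genotype or treatment, which cannot be told apart.

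Enteroendocrine cells are scattered singly through the epithelium and arise from the same stem cells as enterocytes and goblet cells. A transient pulse of the basic helix-loop-helix factor Neurog3 commits a progenitor to this fate, and Neurod1, Insm1, Pax4, Pax6, Isl1, Nkx2-2, Rfx6, Fev and Lmx1a then act in its maturation and in the choice of hormones. Peptide hormones are made as precursors, cut by the convertase Pcsk1 and trimmed by the carboxypeptidase Cpe, and stored with granins in dense-core granules. Each part of the gut has its own mix of hormones, with ghrelin and Gip typical of the stomach and upper small intestine and Insl5 and Pyy typical of the colon.

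The promoters of 4 members are shown because these genes had the highest level per kilobase (kb) of exon in their role: Reg4, Chgb and Neurog3 in Tamoxifen organoids and Pyy in ctr gut. The sequences are the bases just before the gene's start in RefSeq on GRCm38.p6, 5′ to 3′ on the gene's strand. Capitals mark the E-box CANNTG, the motif bound by basic helix-loop-helix factors, which reads the same on both strands. Reg4 lies on chromosome 3 (chr3:98221906-98222137, plus strand), Chgb on chromosome 2 (chr2:132781392-132781641, plus strand), Neurog3 on chromosome 10 (chr10:62132840-62133089, plus strand) and Pyy on chromosome 11 (chr11:102107833-102108082, minus strand).
Reg4: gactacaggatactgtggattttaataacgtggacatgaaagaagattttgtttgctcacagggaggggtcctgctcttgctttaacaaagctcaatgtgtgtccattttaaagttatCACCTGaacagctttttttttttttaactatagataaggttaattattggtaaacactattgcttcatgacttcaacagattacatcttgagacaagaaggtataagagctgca
Chgb: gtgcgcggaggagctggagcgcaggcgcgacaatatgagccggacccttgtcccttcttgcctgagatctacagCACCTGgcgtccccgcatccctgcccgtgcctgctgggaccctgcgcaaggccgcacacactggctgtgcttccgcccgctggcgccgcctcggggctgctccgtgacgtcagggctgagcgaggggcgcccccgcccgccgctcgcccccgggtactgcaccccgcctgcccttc
Neurog3: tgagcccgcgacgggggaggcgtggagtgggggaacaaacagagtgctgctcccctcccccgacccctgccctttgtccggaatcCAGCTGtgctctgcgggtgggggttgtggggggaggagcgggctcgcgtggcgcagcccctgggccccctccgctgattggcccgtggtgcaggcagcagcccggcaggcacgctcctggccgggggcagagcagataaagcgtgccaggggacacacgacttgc
Pyy: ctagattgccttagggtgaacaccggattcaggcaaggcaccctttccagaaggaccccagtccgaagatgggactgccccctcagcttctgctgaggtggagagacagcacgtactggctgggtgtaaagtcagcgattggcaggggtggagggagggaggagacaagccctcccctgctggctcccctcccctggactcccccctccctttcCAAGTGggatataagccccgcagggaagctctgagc
Each window held 1 E-box: CACCTG in Reg4 and Chgb, CAGCTG in Neurog3 and CAAGTG in Pyy. RefSeq promoters were matched for 28 of the 31 genes, with 36 start sites. In the 250 bases before the start, 69.4% of these 36 windows held CANNTG, and so did 66.2% of all 32851 mouse promoter windows. The motif CAGATG, searched on both strands and itself one form of CANNTG, was in 16.7% of the members' windows and in 14.4% of all windows.

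The hormones are given first, in the order of their levels in Tamoxifen organoids. Reg4, a secreted lectin of the regenerating family that is also made by goblet cells, led with 102 ± 2.96 CPM per kb of exon (mean and SD of 3 libraries). Gcg, which encodes proglucagon and thus the peptide GLP-1, followed at 20.7 ± 1.95 CPM per kb. Secretin (Sct) stood at 6.83 ± 0.579 CPM per kb and Tac1, the precursor of substance P, at 6.26 ± 0.0615 CPM per kb. Down to Tac1 the 3 libraries of each gene lay apart from those of the next. The next 6 genes formed a group in which each neighbour overlapped the next: Pyy (peptide YY) at 2.77, Ghrl (ghrelin) at 2.41, Gip at 1.76, Cck (cholecystokinin) at 1.67, Nts (neurotensin) at 1.48 and Tph1, the enzyme that starts serotonin synthesis, at 1.32 CPM per kb. Somatostatin (Sst) at 0.473 and Insl5 at 0.108 CPM per kb were last. The 3 Tamoxifen libraries were close to each other, with 109, 103 and 107 CPM of Reg4 and 8.39, 8.29 and 8.23 CPM of Tac1.

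The order in gut was different. In PG_KO gut Pyy led at 334 ± 41.7 CPM per kb, followed by Insl5 at 88.0 ± 12.7 and Gcg at 79.1 ± 16.1, whose libraries overlapped. In ctr gut Pyy led at 871 ± 751 CPM per kb, followed by Insl5 at 159 ± 128 and Gcg at 125 ± 107, whose libraries also overlapped. Tac1 was the fourth hormone in both gut groups, with 25.9 ± 5.72 CPM per kb in PG_KO and 103 ± 29.9 CPM per kb in ctr. Reg4 was the seventh, with 8.69 ± 6.45 CPM per kb in PG_KO and 22.7 ± 12.4 CPM per kb in ctr. Gip had 0 reads in all 6 gut libraries, which allows up to 0.103 to 0.129 CPM per library. Ghrl had 1, 1 and 2 reads in PG_KO and 2, 3 and 9 reads in ctr libraries, and Nts had 25, 3 and 18 reads in PG_KO and 29, 12 and 0 reads in ctr libraries. Hormones of the upper gut (Gip and Ghrl) were thus detected in Tamoxifen organoids and were at or near 0 in gut tissue, whose segment the labels do not give. The organoid and gut tables were not tested against each other for levels.

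**Figure D1:**
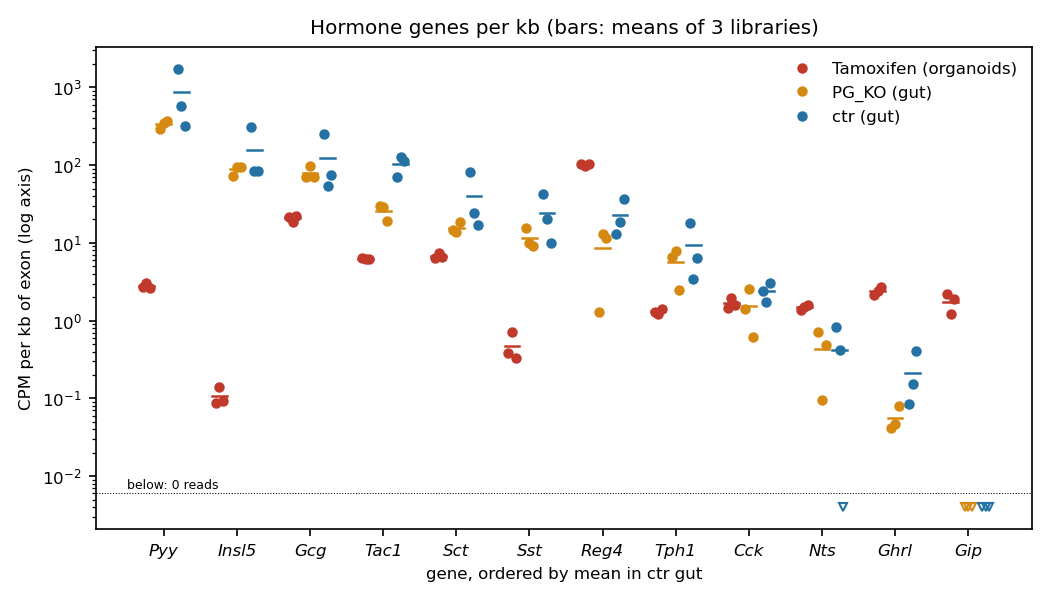
Level of the 12 hormone genes in CPM per kb of exon (log axis) in each of the 3 Tamoxifen organoid, 3 PG_KO gut and 3 ctr gut libraries (points), with group means (bars) and libraries with 0 reads as open triangles at the foot. Reg4, Nts, Ghrl and Gip were higher in Tamoxifen organoids than in any gut library shown, while Pyy and Insl5 lay far above the organoids in gut.

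Among granins and processing genes, chromogranin B (Chgb), a granule protein, led in Tamoxifen organoids at 56.7 ± 1.25 CPM per kb, ahead of Cpe at 12.3 ± 0.505, chromogranin A (Chga) at 6.62 ± 0.379 and Pcsk1 at 3.87 ± 0.218 CPM per kb, each with libraries apart from the next. In PG_KO gut Chgb at 45.5 ± 17.2, Cpe at 34.8 ± 1.99 and Chga at 34.4 ± 8.59 CPM per kb each overlapped the next of the 3, and the same held in ctr gut, with Cpe at 108 ± 45.3, Chgb at 78.0 ± 64.6 and Chga at 68.9 ± 55.4 CPM per kb. Among transcription factors Neurog3 led in all 3 groups, with 4.72 ± 0.345 CPM per kb in Tamoxifen organoids, 1.88 ± 1.86 in PG_KO gut and 1.98 ± 2.45 in ctr gut. In Tamoxifen organoids it lay apart from Insm1, a zinc-finger factor, at 0.884 ± 0.0867 CPM per kb, but not in either gut group.

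**Figure D2:**
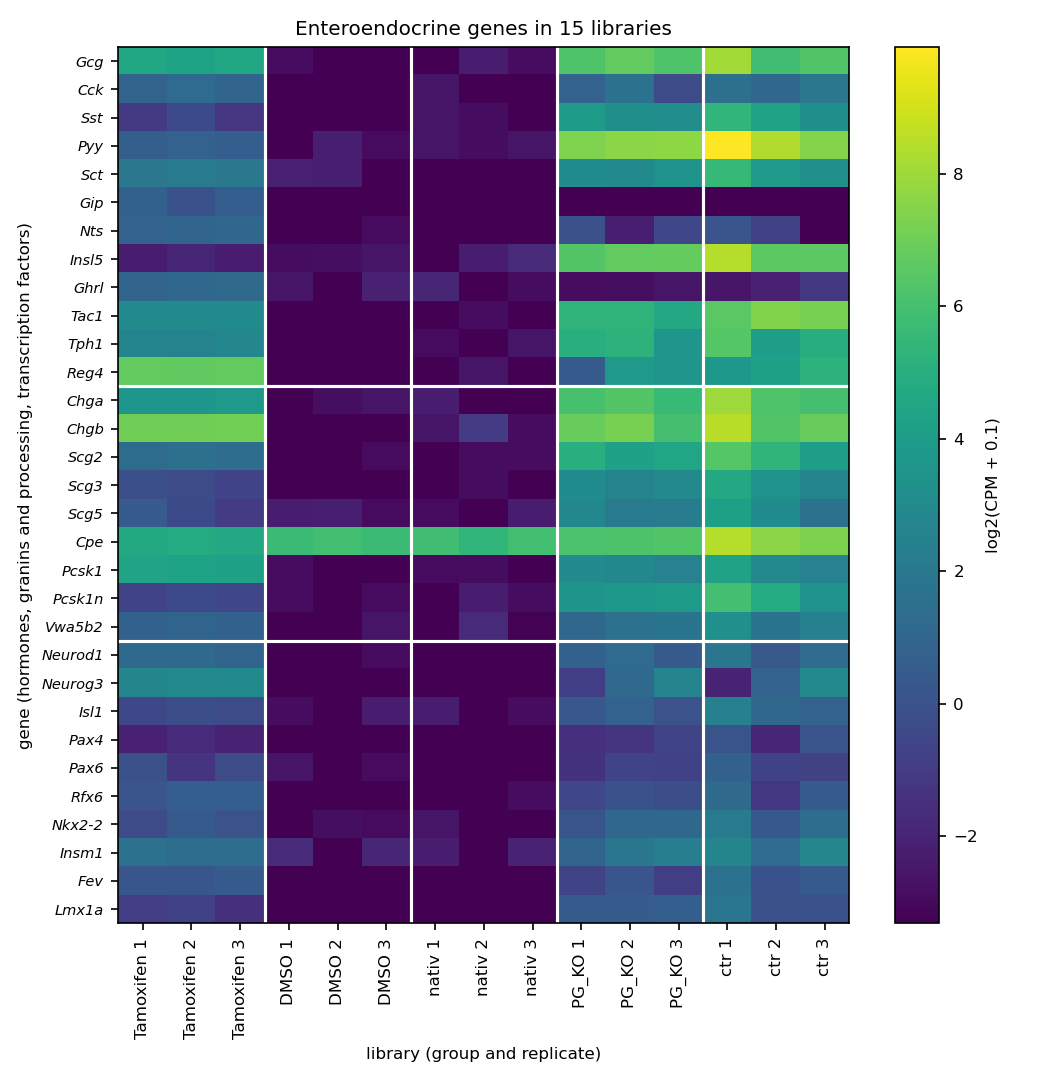
Colour shows log2(CPM + 0.1) of each of the 31 genes (rows, in 3 role blocks) in each of the 15 libraries (columns: Tamoxifen, DMSO and nativ organoids, then PG_KO and ctr gut). Apart from Cpe, the genes are dark in the 6 T75 organoid libraries, and ctr 1 is the brightest gut library for most rows.

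In organoids the members were present in the Tamoxifen group and, but for 1 gene, close to absent in both T75 groups. Of 31 members, 21 averaged at least 1 CPM in Tamoxifen organoids, against 1 in DMSO and 1 in nativ organoids, and that gene was Cpe in both. The other 30 genes together had 10473, 10469 and 9861 reads in Tamoxifen libraries. They had 22, 12 and 26 reads in DMSO libraries and 27, 35 and 24.12 reads in nativ libraries. Among them, 13 had no read at all in the DMSO group and 9 none in the nativ group, and the highest count of any of them in a T75 library was 12 reads, for Chgb. In bulk RNA, fewer cells of a type and less RNA per cell cannot be told apart.

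Reg4 had 3248, 3153 and 2980 reads in Tamoxifen libraries and 0 in every DMSO library. It was at least 3009-fold higher, a bound computed against 3 reads over the group (edgeR adjusted p = 4.22e-09). Chgb had 3991, 4075 and 3859 reads in Tamoxifen libraries and 0 in every DMSO library, at least 3824-fold higher (edgeR adjusted p = 4.79e-08). Gcg had 707, 618 and 669 reads in Tamoxifen libraries, against 1, 0 and 0 reads in DMSO libraries. Its ratio of reads per library total was 1918, with a counting interval (95%, exact) of 344 to 75812 and an edgeR adjusted p of 7.05e-09. Against nativ organoids the ratio was 791 for Chgb (2, 12 and 1 nativ reads) and 496 for Gcg (0, 3 and 1 nativ reads). For Reg4 (0, 2 and 0 nativ reads) it was 4665, with a counting interval of 1291 to 38523. For each of these 3 genes the Tamoxifen libraries did not overlap those of either T75 group. Of the 16449 tested genes, 6872 had all Tamoxifen libraries above all DMSO libraries and 7080 had them above all nativ libraries.

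The other hormones had fewer reads in Tamoxifen organoids and were equally low in DMSO organoids. Tac1 had 251, 255 and 230 reads in Tamoxifen and none in DMSO libraries, at least 236-fold higher. Tph1 had 187, 181 and 190 reads in Tamoxifen and none in DMSO libraries, at least 179-fold higher. Both passed the test (edgeR adjusted p = 1.66e-07 for Tac1 and 3.75e-07 for Tph1). Cck (53, 73 and 53 reads in Tamoxifen) was at least 57.4-fold and Gip (49, 28 and 40 reads in Tamoxifen) at least 37.5-fold higher than in DMSO organoids, where both had no read. Sct had 111, 133 and 106 reads in Tamoxifen and 4, 3 and 0 reads in DMSO libraries, a 48.1-fold difference. Ghrl had 54, 62 and 65 reads in Tamoxifen and 2, 0 and 4 reads in DMSO libraries, a 29.0-fold difference. These 4 genes passed the same test. Like Tac1 and Tph1, they passed the filter on low counts through the Tamoxifen libraries, so these test results are given as a description. Pyy had 45, 52 and 41 reads in Tamoxifen and 0, 3 and 1 reads in DMSO libraries, a 33.2-fold difference, and Nts had 51, 57 and 55 reads in Tamoxifen and 0, 0 and 1 reads in DMSO libraries. Sst was scarce, with 11, 21 and 9 reads in Tamoxifen libraries and none in DMSO libraries, at least 13.1-fold higher. Insl5, a relaxin-family peptide of colonic cells, stood apart from the other hormones with 3, 5 and 3 reads in Tamoxifen, 1, 1 and 2 in DMSO and 0, 3 and 6 in nativ libraries. Its reads in Tamoxifen and nativ libraries overlapped, and it did not reach the count needed for testing.

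Of the remaining granule genes, the convertase Pcsk1 had 643, 621 and 537 reads in Tamoxifen and 1, 0 and 0 reads in DMSO libraries, and Chga had 366, 376 and 377 reads in Tamoxifen and 0, 1 and 2 reads in DMSO libraries. Secretogranins Scg2, Scg3 and Scg5 and the convertase inhibitor Pcsk1n had at most 89 reads in a Tamoxifen library and at most 3 in a DMSO library. Vwa5b2 had 48, 57 and 45 reads in Tamoxifen and 0, 0 and 2 reads in DMSO libraries. Cpe went the other way, with 26.6, 27.9 and 25.7 CPM in Tamoxifen organoids, against 51.9, 60.8 and 51.8 CPM in DMSO organoids. All 3 Tamoxifen libraries were below all 6 T75 libraries. Of the 16449 tested genes, 5662 had all Tamoxifen libraries below all DMSO libraries and 5204 had them below all nativ libraries. The log2 change of Cpe was -1.11 with an SE of 0.12 against DMSO (edgeR adjusted p = 1.07e-05) and -1.11 with an SE of 0.12 against nativ organoids (edgeR adjusted p = 1.08e-05).

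Neurog3 had 199, 231 and 213 reads in Tamoxifen libraries and none in any of the 6 T75 libraries, at least 206-fold higher than in DMSO organoids (edgeR adjusted p = 1.6e-06). Insm1 had 89, 77 and 71 reads in Tamoxifen and 6, 0 and 5 reads in DMSO libraries. Neurod1, a helix-loop-helix factor downstream of Neurog3, had 66, 68 and 50 reads in Tamoxifen and 0, 0 and 1 reads in DMSO libraries. Rfx6, a winged-helix factor, and Fev, an ETS factor also known from serotonergic neurons, had 31 to 45 and 32 to 36 reads in Tamoxifen libraries and none in DMSO libraries. Nkx2-2, a homeodomain factor, had 22, 39 and 26 reads in Tamoxifen and 0, 1 and 1 reads in DMSO libraries, and Isl1 had 19, 25 and 20 reads in Tamoxifen and 1, 0 and 3 reads in DMSO libraries. Pax6, a paired-box factor, had 26, 9 and 20 reads in Tamoxifen and 2, 0 and 1 reads in DMSO libraries. Lmx1a, a factor of serotonin-producing cells, had 13, 15 and 7 reads in Tamoxifen libraries and none in T75 libraries. Pax4, a paired-box factor, was the lowest with 4, 6 and 4 reads in Tamoxifen libraries and none in T75 libraries.

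Over the whole table, 26 of the 31 members had enough reads to be tested against DMSO, all except Sst, Insl5, Pax4, Pax6 and Lmx1a. Of the tested members 25 were higher and 1 lower in Tamoxifen organoids, where 33.9% of the 16449 tested genes were higher and 32.4% lower. Against nativ organoids 25 members were again higher and 1 lower, with 33.5% of tested genes higher and 33.5% lower. Apart from Cpe the tested members passed the filter on low counts through the Tamoxifen libraries. These counts of members therefore had to come out high and are given as a description, as are the p-values of those members above. With no filter, 29 of 31 were higher in each comparison, with Insl5 the gene that did not pass (edgeR adjusted p = 0.334 against DMSO). The DMSO and nativ groups have 1 code, T75, and differ in their label. No member and 0% of 16449 genes passed the edgeR test between them (3 members and 2408 genes had an unadjusted p under 0.05, and DESeq2 called 157 genes and 0 members). Cpe was 51.9, 60.8 and 51.8 CPM in DMSO and 58.7, 42.5 and 59.3 CPM in nativ organoids, which overlap. Chgb was the 1 member whose libraries lay apart, with 0 reads in every DMSO library and 2, 12 and 1 reads in nativ libraries. Counts of 1 and 2 reads lie within the 3 reads that a count of 0 allows. Of the 16449 tested genes, 1164 had all DMSO libraries above all nativ libraries and 1152 had them below.

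Genes outside the list that enteroendocrine cells are also known to use moved in both directions between Tamoxifen and DMSO organoids. Of 47 such genes 33 were tested, with 17 higher and 10 lower, where 33.9% of all 16449 tested genes were higher and 32.4% lower. Their median log2 difference was 0.76, against 0.02 over all tested genes. Ddc, which completes serotonin synthesis, was 34.0 ± 0.913 CPM in Tamoxifen and 0.172 ± 0.173 CPM in DMSO organoids (log2 change 7.50, SE 0.32, edgeR adjusted p = 7.81e-09). Syt7, a calcium sensor of granule release, was 69.2 ± 2.34 CPM in Tamoxifen and 1.17 ± 0.248 CPM in DMSO organoids (log2 change 5.82, SE 0.18, edgeR adjusted p = 8.54e-10). Hhex and Foxa2, transcription factors of foregut endoderm that somatostatin cells and the enteroendocrine lineage also use, fell by 5.98 and 4.48 on the log2 scale (edgeR adjusted p = 2.36e-10 and 7.61e-10). Hhex was 3.34 ± 0.218 CPM in Tamoxifen and 201 ± 28.2 CPM in DMSO organoids. Foxa1, of the same list, was higher in Tamoxifen (40.3 to 42.2 CPM) than in DMSO organoids (3.92 to 6.33 CPM). Of 21 receptors for the hormones only 4 had enough reads, of which Htr4, a serotonin receptor, was higher (log2 change 6.89, SE 0.56, edgeR adjusted p = 1.37e-06) and Sstr2, a somatostatin receptor, lower (log2 change -1.42, SE 0.21, edgeR adjusted p = 1.71e-04). Markers of enteric neurons, which also make granins and several of the peptides, summed to 10.6 to 10.96 CPM in Tamoxifen, 5.23 to 6.06 CPM in DMSO and 4.69 to 6.89 CPM in nativ organoids. Most of that was Ret, and Stmn2 and Gap43 were among the markers with 0 reads in Tamoxifen organoids.

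In gut, the same genes were abundant in both groups. Of 31 members, 24 averaged at least 1 CPM in PG_KO and 26 in ctr gut. No member passed the edgeR test between PG_KO and ctr gut, and 0% of the 18043 genes tested did (7 of 29 tested members and 2705 genes had an unadjusted p under 0.05). Jup itself, at a log2 change of -2.29 (SE 0.23), did not pass it either (edgeR adjusted p = 0.163). The log2 change was negative for 28 of 29 members, with a median of -0.90, while 52.6% of all tested genes were negative, with a median of -0.03. Without ctr replicate 1, 22 of 29 members were negative, with a median of -0.21.

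The library ctr 1 held 27041 reads of Pyy, against 7402 and 4671 in ctr 2 and ctr 3 and 4575, 4923 and 6032 in the 3 PG_KO libraries. Insl5 was 350 CPM in ctr 1 and 84.0 to 110 CPM in the other 5 gut libraries. Chga was 66.5, 81.8 and 49.0 CPM in PG_KO gut, against 253, 77.6 and 63.4 CPM in ctr gut. For each of the 3 genes ctr 1 stood above the rest and the other libraries overlapped. This library was the highest of the 6 for 23 of 29 members, or 79.3%, for all 9 granin and processing genes, and for 36.4% of all tested genes. It was also the highest for 14 of 14 enteric neuron markers, whose sum was 398, 228 and 255 CPM in PG_KO and 860, 419 and 224 CPM in ctr gut. It was highest for 6 of 6 fibroblast markers, whose sum was 1155, 1221 and 525 CPM in PG_KO and 3194, 1865 and 779 CPM in ctr gut. Smooth muscle markers summed to 407, 568 and 711 CPM in PG_KO and 2629, 2050 and 412 CPM in ctr gut. None of the 6 general epithelial markers was highest in ctr 1, and their sum was 14099, 11400 and 13367 CPM in PG_KO against 7106, 8178 and 11399 CPM in ctr gut. Mast cell markers, relevant to Tph1, summed to 14.3, 18.5 and 17.7 CPM in PG_KO and 43.0, 29.5 and 28.1 CPM in ctr gut. Kit made up 10.2 CPM of this in PG_KO 1 and 32.3 CPM in ctr 1, and was also most of the sum in ctr 2. It was 9.48 to 9.66 CPM in Tamoxifen organoids, where the mast cell markers Cpa3, Mcpt4 and Fcer1a had 0 reads. In gut Cpa3, Mcpt4, Fcer1a and Tpsb2 were at most 0.465 CPM. Mcpt1 was 1.09, 1.54 and 1.30 CPM in PG_KO and 2.58, 2.20 and 1.87 CPM in ctr gut. Mcpt2 was 0.846, 1.39 and 1.85 CPM in PG_KO and 2.90, 2.16 and 2.18 CPM in ctr gut. Neither overlapped between the groups, while Cma1 did (1.94 to 7.64 CPM in PG_KO, 2.46 to 12.8 CPM in ctr gut). The 4 mast cell markers tested had negative log2 changes, with none called. The part of mast cells in the Tph1 values was not tested. None of the neuron, fibroblast, muscle and epithelial markers was at 0 in gut, and their part in the hormone values was not tested.

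By role, the median log2 change in gut was -0.93 over the 10 hormones tested, -0.92 over the 9 granin and processing genes and -0.71 over the 10 transcription factors. Gcg was 76.5, 107 and 75.9 CPM in PG_KO, against 271, 58.5 and 80.4 CPM in ctr gut. Sct was 8.49, 7.88 and 10.6 CPM in PG_KO, against 46.4, 13.9 and 9.79 CPM in ctr gut. Both overlapped between the groups, and their log2 changes were -0.63 (SE 0.54) for Gcg and -1.34 (SE 0.56) for Sct. Sst was 15.1, 9.62 and 8.78 CPM in PG_KO, against 41.7, 19.7 and 9.68 CPM in ctr gut. Tph1 was 31.7, 37.3 and 11.8 CPM in PG_KO, against 86.5, 16.6 and 30.7 CPM in ctr gut. These too overlapped, with ctr 1 the highest library. Cck was low throughout, with 1.69, 3.09 and 0.752 CPM in PG_KO and 2.90, 2.11 and 3.71 CPM in ctr gut. Nts was the 1 tested member with a positive log2 change (0.12, SE 1.14).

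**Figure D3:**
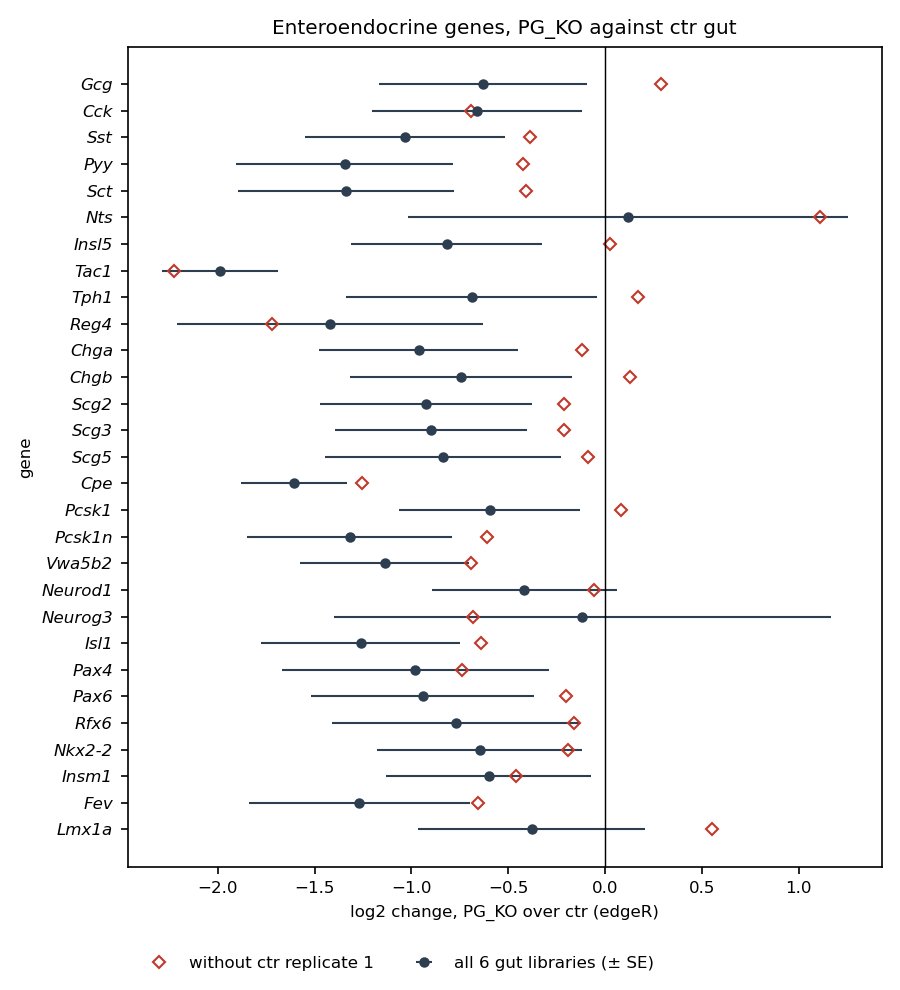
Log2 change of PG_KO over ctr gut for the 29 tested genes, with all 6 libraries (filled points, bars ± SE) and without ctr replicate 1 (open diamonds). With all libraries 28 points lie below 0; without ctr 1 most move towards 0, while Tac1, Reg4 and Cpe stay below -1.

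Tac1 and Cpe differed most clearly between the gut groups. Tac1 was 39.0, 38.5 and 25.6 CPM in PG_KO, against 93.0, 170 and 149 CPM in ctr gut. All PG_KO libraries were below all ctr libraries, and here ctr 1 was the lowest of the ctr libraries. The log2 change was -1.99 (SE 0.30), not called by edgeR (adjusted p = 0.33) and called by DESeq2 (adjusted p = 7.15e-06). Cpe was 72.0, 74.3 and 80.4 CPM in PG_KO, against 346, 198 and 160 CPM in ctr gut, again without overlap. Its log2 change was -1.61 (SE 0.27), not called by edgeR (adjusted p = 0.33) and called by DESeq2 (adjusted p = 6.48e-05). DESeq2 called these 2 members lower, where it called 2.03% of tested genes lower. Without ctr replicate 1 the log2 change was -2.22 for Tac1 and -1.26 for Cpe, neither of them called by edgeR, and without ctr replicate 3 both were called by edgeR, as was Pcsk1n, in a fit that called 1478 genes in all. Among tested members Isl1, a LIM-homeodomain factor, was the only other one with all PG_KO libraries (1.13, 1.702 and 0.957 CPM) below all ctr libraries (5.37, 2.16 and 1.72 CPM). These 3 of 29 tested members are to be read against the 8.67% of all tested genes that were separated in this way. Tac1, Cpe and Isl1 are also made by enteric neurons. The 14 neuron markers had a negative log2 change in 14 of 14 cases, with a median of -0.84, close to the members' median, although none was called and their sums overlapped between the groups. Neurons did not stand out in this. The median was -1.46 for smooth muscle, -1.25 for immune, -1.20 for enteric glia and -1.06 for fibroblast markers. It was 0.45 for general epithelial markers, 0.16 for intestinal epithelial markers and -0.03 over all tested genes. The part of any of these cell types in the differences of Tac1, Cpe and Isl1 was not tested.

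Neurog3, the factor that starts the lineage, ordered the ctr libraries differently from Pyy, Gcg and Chga. Neurog3 was 0.458, 2.18 and 6.05 CPM in PG_KO and 0.143, 1.68 and 7.31 CPM in ctr gut, a spread of 13.2-fold within PG_KO and 51.01-fold within ctr. Its lowest library was ctr 1, the one with the most Pyy, Insl5 and Chga. The groups overlapped throughout, and the log2 change was -0.12 (SE 1.28, edgeR adjusted p = 0.967). Reg4 was also uneven, with 1.34, 13.6 and 12.1 CPM in PG_KO and 13.4, 19.2 and 38.1 CPM in ctr gut, and it too was lowest among the ctr libraries in ctr 1, as were Ghrl and Tac1. Nkx2-2 and Fev, in contrast, were highest in ctr 1, at 4.19 and 2.94 CPM.

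**Figure D4:**
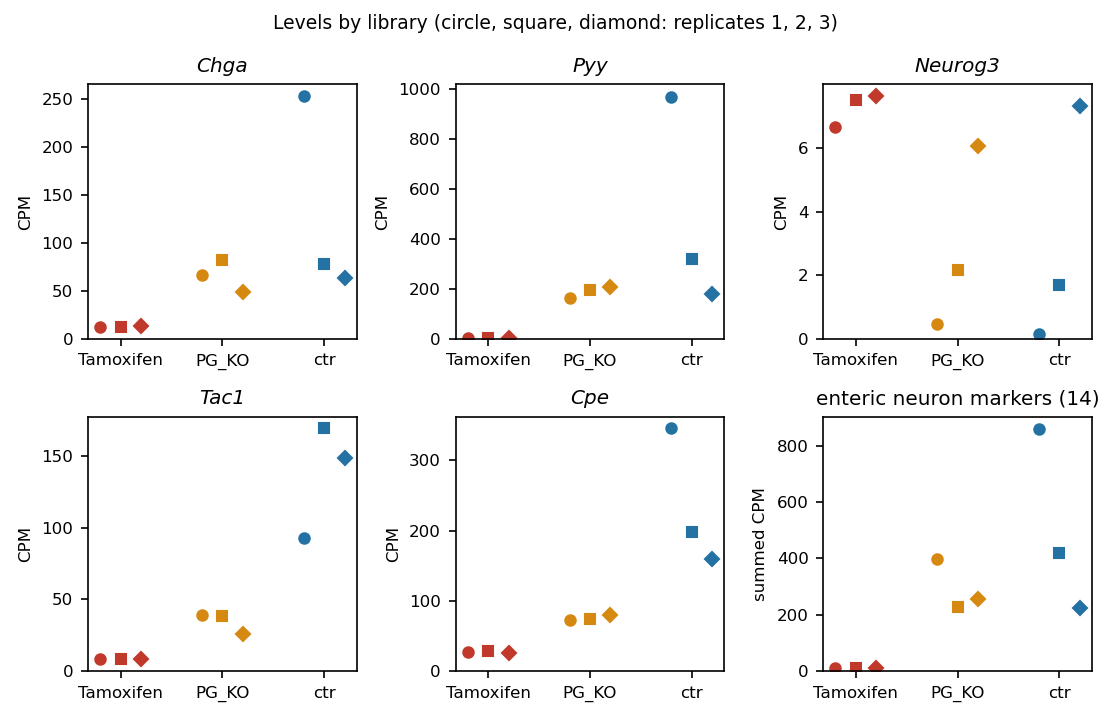
CPM of 5 genes, and summed CPM of 14 enteric neuron markers, in each library of Tamoxifen organoids, PG_KO gut and ctr gut (linear axes from 0; circle, square and diamond are replicates 1, 2 and 3). Chga, Pyy and the neuron markers peak in ctr 1, where Neurog3 is lowest, and Tac1 and Cpe are lower in all 3 PG_KO than in all 3 ctr libraries.

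Ratios between members, chosen after their values were seen, describe how the mixture differed. Reads of Insl5 per read of Gcg were 0.00424 to 0.00809 in Tamoxifen organoids, 1.02 to 1.45 in PG_KO gut and 1.21 to 1.66 in ctr gut. The organoid ratio rests on 3, 5 and 3 reads of Insl5, near the 3 reads that a count of 0 allows, against 707, 618 and 669 reads of Gcg. In ctr 1, where both genes were higher than in the other 5 gut libraries, this ratio was 1.29. Reads of Chgb per read of Chga were 10.2 to 10.9 in Tamoxifen organoids, 1.33 to 1.79 in PG_KO gut and 1.02 to 1.82 in ctr gut. Reads of Pcsk1 per read of Chga were 1.42 to 1.76 in Tamoxifen organoids, 0.0861 to 0.123 in PG_KO gut and 0.0766 to 0.0949 in ctr gut. Reads of Neurog3 per read of Chga were 0.544 to 0.614 in Tamoxifen organoids, 0.00689 to 0.123 in PG_KO gut and 0.000565 to 0.115 in ctr gut. For these 4 ratios the organoid range did not overlap either gut range, and the 2 gut ranges overlapped each other.

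Other enteroendocrine genes and hormone receptors mostly had negative changes in gut, and none passed the test. Of 47 other enteroendocrine genes 42 were tested, none was called, and 36 had a negative log2 change, with a median of -0.91, and ctr 1 was the highest library for 32 of the 42. Syt7 was 12.2 ± 1.44 CPM in PG_KO and 27.8 ± 12.6 CPM in ctr gut (log2 change -1.17, SE 0.32, edgeR adjusted p = 0.33). All 13 receptors tested had a negative change, with a median of -1.04 and none called. Glp2r, the receptor of the GLP-2 peptide that is also cut from proglucagon, was 6.41, 6.77 and 7.79 CPM in PG_KO and 28.2, 21.5 and 10.02 CPM in ctr gut (log2 change -1.48, SE 0.36, edgeR adjusted p = 0.33).

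Organoids and gut were set against each other by testing whether the difference of Tamoxifen from DMSO organoids equals that of PG_KO from ctr gut. For 28 of 31 members it was larger in organoids, where 20.7% of 19141 tested genes were called in that direction. Apart from Cpe the members were close to absent in DMSO organoids, so this count largely had to come out high. It is given as a description. The exceptions were Insl5 (log2 difference 2.16, SE 1.47, edgeR adjusted p = 0.286), Cpe (0.56, SE 0.32, edgeR adjusted p = 0.194), and Gip. Gip had no read in DMSO organoids or gut, so that its fitted difference rests on the prior count, and it was not called by edgeR (adjusted p = 0.999935) and called by DESeq2 (adjusted p = 0.016), which called 29 members higher in all. The tables join different material, and codes and genotypes differ between the organoid groups, so what this difference rests on cannot be told apart. Reads of Cck, Pcsk1n, Vwa5b2, Pax6 and Nkx2-2 cannot be told apart from those of overlapping genes, since the strand setting of the counting is not given in the sources used here.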

How the data were processed

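Samples were grouped by their descriptions. The deposited values are expected counts per gene, some of them fractional, made by the authors on GRCm38.p6. The submitters' processing notes list STAR 2.7.2b, featureCounts 1.6.4, cutadapt 2.5 and bcl2fastq 2.20.0.422, as well as Subread and DESeq2. RNA was isolated with TRIZOL and enriched for poly(A), per the labels' protocols. The share of fractional values was 10.4% to 13.7% per library, and counts were rounded before fits. The test was edgeR's quasi-likelihood F test (edgeR 4.0.16, R 4.3.3; TMM factors, filterByExpr by group, robust dispersions, Benjamini-Hochberg over all tested genes, adjusted p under 0.05, fitted to the 9 organoid libraries, to the 6 gut libraries and, for the difference of differences, to 12 libraries). SE is the size of the log2 change over the root of F. Alternatives used DESeq2 1.42.0, limma 3.58.1, other scaling, filters, a replicate block, and libraries left out. CPM use library totals. Intervals and floors cover counting error only. Levels were compared between genes per kb of combined exon length. The main test did not treat samples with the same replicate number as paired. The fits were tested on simulated data. The members and lists were chosen with earlier results of these data known. All members are named. Of each other list, the rule named 4 genes by smallest p in comparisons that called members, and 2 in the others, and some of these are given.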

Additional observations from a re-analysis of the deposited data

Results flagged for a closer look

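The difference between Tamoxifen and DMSO organoids was not the same as that between PG_KO and ctr gut for 28 of the 31 genes, by the interaction term of edgeR over 12 libraries at an adjusted p under 0.05. The values below are the organoid log2 change less the gut log2 change. They depend on the prior count for genes with no read in DMSO organoids. All 28 genes were close to absent in DMSO organoids, so their number largely had to come out high and is given as a description.

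Among hormones the difference was 11.10 for Gcg, 9.55 for Cck, 7.83 for Sst, 6.28 for Pyy, 6.85 for Sct, 6.76 for Nts, 6.61 for Ghrl, 12.92 for Tac1, 11.24 for Tph1 and 16.03 for Reg4. Among granins and processing genes it was 9.29 for Chga, 15.71 for Chgb, 8.31 for Scg2, 8.31 for Scg3, 4.04 for Scg5, 10.92 for Pcsk1, 5.81 for Pcsk1n and 7.09 for Vwa5b2. Among transcription factors it was 7.44 for Neurod1, 10.85 for Neurog3, 5.11 for Isl1, 6.24 for Pax4, 4.96 for Pax6, 9.06 for Rfx6, 5.79 for Nkx2-2, 4.95 for Insm1, 9.37 for Fev and 6.95 for Lmx1a. The largest SE belonged to Neurog3 (2.62), whose gut libraries were the most uneven. The log2 change of Cpe was -1.11 in organoids and -1.61 in gut, and its difference of 0.56 was not called.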

How the results depend on the processing

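In organoids all 358 values against DMSO and all 358 against nativ kept their direction and side of the threshold under the alternatives run. The number of members called lower in PG_KO gut was 0 with edgeR, 2 with DESeq2 (458 genes called in all), 2 with all 15 libraries in 1 fit (403 in all), and 0 to 3 when leaving out 1 library (3 without ctr replicate 3, where 1478 genes were called). Without ctr replicate 1 and PG_KO replicate 3 the log2 change turned to 0.38 for Gcg, 0.53 for Tph1, 0.0602 for Chga, 0.39 for Chgb, 0.0134 for Scg5, 0.21 for Pcsk1, 0.14 for Neurod1 and 0.50 for Lmx1a. Leaving out 1 library at a time gave -0.96 to 0.29 for Gcg, -0.46 to 1.11 for Nts, -1.09 to 0.0275 for Insl5, -1.04 to 0.17 for Tph1, -1.07 to 0.13 for Chgb, -0.84 to 0.0809 for Pcsk1, -1.26 to 1.69 for Neurog3 and -0.67 to 0.55 for Lmx1a. Neurog3 was 0.64 with limma-voom and 0.39 with the replicate block, which changed no other sign among these values and no call. The correlation of deviations between samples with the same number was below 0.1 for at least 1 pair in every comparison. In gut it was 0.29, -0.18 and 0.15. A check on 3 libraries per group cannot exclude pairing, and the main fits used none. Cpe between DMSO and nativ organoids was close to 0 in edgeR and became 0.00768 with DESeq2, 0.00796 with RLE factors, 0.0356 with library totals, 0.00786 with no filter, and -0.11 to 0.0528 without 1 library. Of the 598 values for the difference between organoids and gut, 2 (Scg5 and Pcsk1n with limma-voom) lost their call. The cause of these changes was not tested. At 3 reads per library, T75 organoids cannot resolve members below about 0.1 CPM.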

Other observations

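Pancreatic polypeptide (Ppy), a relative of Pyy that was listed among pancreas markers, had 36.1, 43.7 and 40.8 CPM in PG_KO gut and 94.2, 54.9 and 16.3 CPM in ctr gut, while Ins1 and Ins2 had 0 reads in all 15 libraries. The order of the ctr libraries was the one seen for Pyy. In Tamoxifen organoids Ppy was at most 0.0334 CPM.

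Cdx1, a homeobox gene of intestinal identity, had the same order of libraries as Neurog3 within PG_KO and within ctr gut, though not over all 6, with 170, 297 and 417 CPM in PG_KO and 146, 275 and 349 CPM in ctr libraries. These values were chosen after they were seen and were not tested.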
